A study of Mus musculus with 9 samples.

Results

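The 9 genes Atrx, Daxx, Hira, Ubn1, Cabin1, Asf1a, Asf1b, H3f3a and H3f3b encode the histone variant H3.3 and the chaperones that deposit it. They were picked by name from the 28052 genes of the count matrix, and all 9 had a row in it. The rule used no values, but earlier results of these data were known when it was made. Their transcript levels were compared among growing XX, XO and XY mouse oocytes, with 3 samples of each genotype, labelled C57BL/6 at 18 days post partum. Each sample pooled 30 oocytes, of which 10 were 50–55 µm and 20 were 55–60 µm in diameter. XY females carried the Y chromosome of B6.YTIR males and were compared with their XX littermates, whereas XO females came from a separate cross with males carrying Paf on a background backcrossed from C3H/HeSnJ to B6. A difference between XO oocytes and the other genotypes thus cannot be told apart from a difference between the crosses.

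Nucleosomes contain histone H3, and most H3 is laid down during DNA replication. The variant H3.3 is laid down at any time, which makes it the main source of new H3 in cells that no longer divide, such as the oocyte arrested in meiotic prophase. It has 2 deposition routes. The remodeler ATRX and its partner DAXX place H3.3 at telomeres, pericentromeric repeats and silenced retroelements, and the complex of HIRA, UBN1 and CABIN1 places it at active genes and promoters. ASF1A and ASF1B bind new H3–H4 dimers and hand them to HIRA or to the replication-coupled chaperone CAF-1. HIRA in the egg is also required to build the chromatin of the paternal genome after fertilization.

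Unique molecular identifiers (UMIs) were attached at 5′ ends before amplification, so 1 UMI stands for 1 captured transcript whatever its length, and no scaling by length was applied when genes were compared. Levels are given as normalized CPM, the UMI count scaled to the UMIs on genes of the sample times a factor. The authors took this factor from ERCC spike-in RNAs. Levels were thus not calibrated to the amount of RNA relative to the spike-in. XX3 had the lowest ERCC share of UMIs (0.204%) but also the lowest sum of normalized CPM (802037). One UMI was worth 0.302–0.565 normalized CPM. Samples held between 2130145 and 3157338 UMIs on genes. TMM factors of the genes were an alternative scaling of the same counts. They moved the median log2 fold change of all tested genes for XX vs. XO oocytes from -0.46 to -0.03. Changes of the tested members in this comparison are therefore also given relative to the median of -0.46. In a pool of 30 oocytes, fewer contributing cells and less RNA per cell cannot be told apart. XO1 had a mean Spearman coefficient of 0.646 to the other 2 XO samples and was nearest to XY1 (0.932), against 0.788–0.948 for the other samples and their own genotypes. In its heatmap of highly expressed and variable genes the study found XX1, XO2 and XY1, not XO1, to be less like their replicates. XO1 is here the XO column without a number, and why the labels differ was not tested. All 12 oocyte markers were present, with sums of 18884–43707 normalized CPM. The 9 granulosa cell markers in the matrix summed to 41.7–53.1 for XX, 40.3–54.9 for XO and 41.7–73.4 for XY samples, Nr5a2 making up most of it, while Fst, Inha, Amhr2 and Wt1 were at 0 in XX samples, Inha in XO samples and Fst in XY samples.

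The 9 genes covered a wide range of levels. In XX oocytes Atrx stood far above its partner Daxx, and Ubn1 above Hira and Cabin1, while Hira and Cabin1 were at like levels. Atrx was at the top, with 311 ± 55.3 normalized CPM (SD, n = 3) in XX oocytes, above 98.3% of the genes detected there. H3f3b followed with 135 ± 30.6, above 96.3%, and then H3f3a with 43.9 ± 6.41, Asf1a with 34.9 ± 8.91, Asf1b with 21.4 ± 6.38 and Ubn1 with 12.9 ± 4.15. Hira had 3.85 ± 1.08, Cabin1 3.04 ± 1.63 and Daxx 1.43 ± 0.623 in XX oocytes. Neighbours in this order whose XX samples overlapped were H3f3a and Asf1a, Asf1a and Asf1b, Asf1b and Ubn1, Hira and Cabin1, and Cabin1 and Daxx. Over the 9 samples Atrx had 5376 UMIs and its partner Daxx 45, whereas Ubn1 stood above Hira in 9 of 9 samples.

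**Figure D1:**
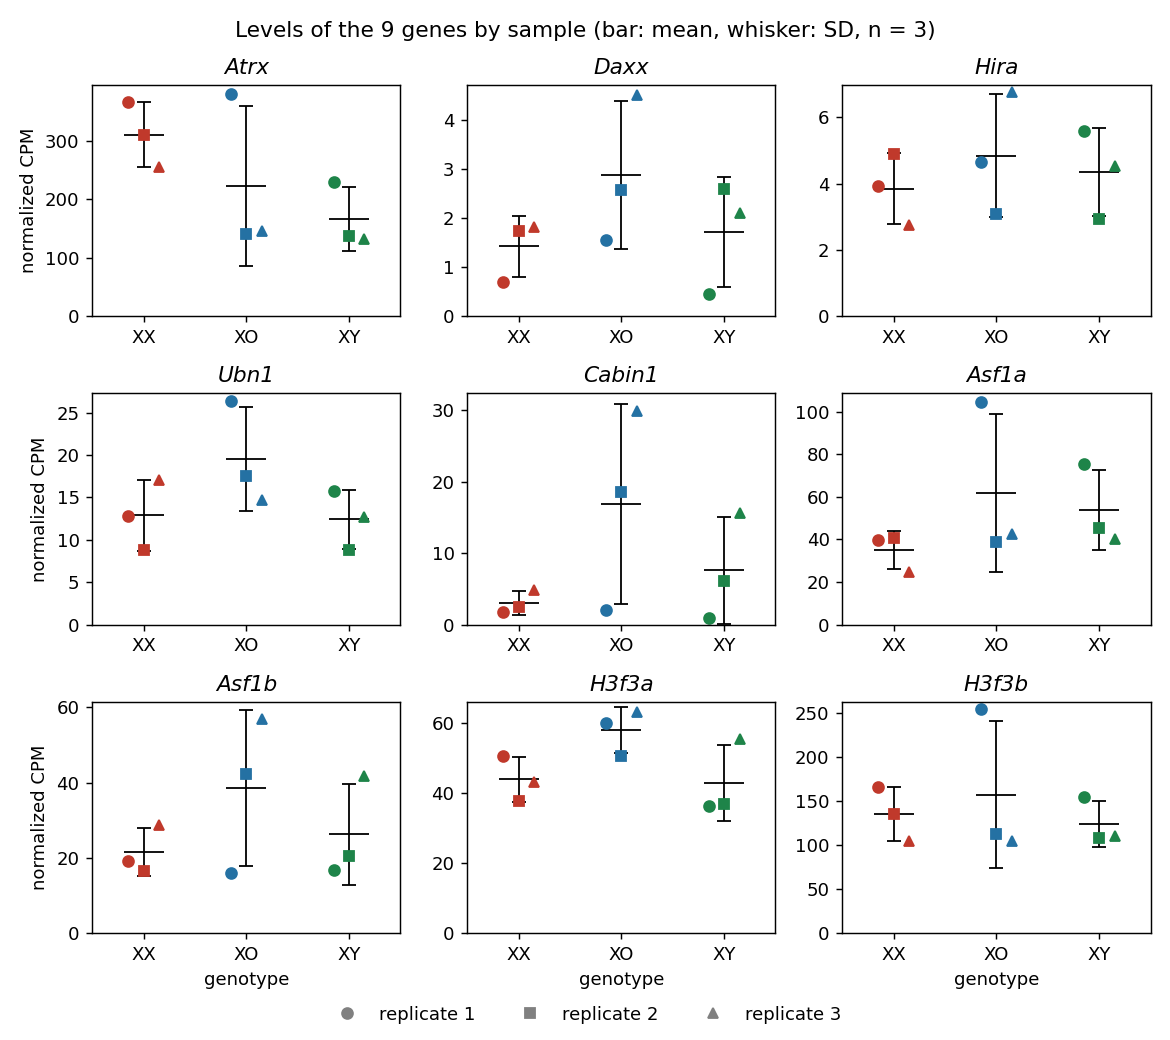
Normalized CPM (vertical axes, each from 0) of the 9 genes in XX, XO and XY oocytes (horizontal axes); symbols are samples by replicate number, bars the mean and whiskers the SD (n = 3). Atrx in XX samples (256–367) lay above all XY samples (132–230.1), and Cabin1 reached 18.6 and 29.9 in 2 XO samples but 2.07 in the other.

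H3.3 itself is encoded by H3f3a (chr1:180800832-180813943, minus strand, GRCm38) and H3f3b (chr11:116021912-116027962, minus strand). The longest open reading frames of their Gencode vM21 transcripts translate into the same 136 residues (136 of 136 identical), while 95 of the 411 coding bases differ (76.9% identical). H3f3c, annotated as a processed pseudogene (chr2:119665626-119666036, minus strand), differs from the H3f3a coding sequence at 4 of 411 bases. The first 120 coding bases are shown to let a reader compare the genes that encode H3.3 with a near-identical copy; which bases the counted 5′ reads cover was not tested. They lie at chr1:180811807-180811926, chr11:116023890-116024009 and chr2:119665917-119666036, all on the minus strand, and capitals mark bases in which H3f3a and H3f3b differ from each other (24 bases) and in which H3f3c differs from H3f3a (2 bases).
H3f3a: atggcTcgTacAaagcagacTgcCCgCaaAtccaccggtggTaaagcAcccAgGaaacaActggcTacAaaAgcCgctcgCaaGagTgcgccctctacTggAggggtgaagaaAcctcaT
H3f3b: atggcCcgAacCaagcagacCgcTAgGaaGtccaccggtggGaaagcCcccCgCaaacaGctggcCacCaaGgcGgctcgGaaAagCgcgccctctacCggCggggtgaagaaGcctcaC
H3f3c: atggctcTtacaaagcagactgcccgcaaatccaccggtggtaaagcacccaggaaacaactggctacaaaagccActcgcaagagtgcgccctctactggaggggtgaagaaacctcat

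H3f3b was the more abundant H3.3 gene, with 1.66–4.24 UMIs for each UMI of H3f3a and a higher count in 9 of 9 samples. H3f3b reached 166, 135 and 105 normalized CPM in the XX samples, 254, 113 and 105 in the XO samples, and 154, 108 and 109.6 in the XY samples (replicates 1 to 3). Its highest sample was XO1, and the 3 genotypes overlapped. The log2 fold change was -0.22 (SE 0.395, 95% interval -1.10 to 0.67) for XX vs. XO, 0.13 (-0.76 to 1.01) for XX vs. XY and -0.34 (-1.23 to 0.54) for XY vs. XO oocytes. For XX vs. XO the sign turned to 0.15 with TMM scaling and to 0.31 without XO1.

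H3f3a reached 50.6, 37.8 and 43.3 normalized CPM in the XX, 60.1, 50.7 and 63.2 in the XO, and 36.3, 36.8 and 55.5 in the XY samples. Every XO sample was above every XX sample, by as little as 50.66 against 50.58, while XY overlapped both. Across 10976 tested genes, 16.4% had ranges apart for XX vs. XO, 15.9% for XX vs. XY and 10.2% for XY vs. XO oocytes, against 1 of 8 tested members (H3f3a), 1 of 8 (Atrx) and 0 of 8. The edgeR test did not call the difference, with a log2 fold change of -0.40 (SE 0.276, 95% interval -1.02 to 0.22, adjusted p = 0.433) for XX vs. XO, and with TMM scaling it was 0.029. Relative to the median of all genes it was 0.06. H3f3a was thus among the members with the least spread: its biological coefficient of variation in the fit was 0.287 and that of Hira 0.282, where the median gene had 0.377.

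H3f3a counts are uncertain, because 21 other genes of the matrix carry a copy of its coding sequence (at least 90% identical over at least 300 bases) and together held 572 UMIs beside the 1093 of H3f3a itself. Copies closest to H3f3b held 14 UMIs beside 3117. Of the genes named after H3.3, H3f3c had 123 UMIs, H3f3a-ps2 35 and the antisense gene H3f3aos 2 over the 9 samples. In which of these the reads arose was not tested. With all copies added, the level of H3f3a was 72.7 ± 11.4 for XX, 81.9 ± 15.4 for XO and 63.8 ± 13.8 for XY oocytes (SD, n = 3), and the XX and XO samples then overlapped, at 63.7–85.5 and 67.2–97.9. H3f3a and H3f3b together, without the copies, stood at 179 ± 34.7 normalized CPM for XX, 215 ± 85.5 for XO and 167 ± 22.5 for XY oocytes. The 9 replication-dependent H3 genes in the matrix (named Hist1h3 or Hist2h3) had 3–12 UMIs per sample in all; most transcripts of such genes lack a poly(A) tail, and the libraries were primed with poly(T).

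The share of H3.3 UMIs that came from H3f3a does not depend on the scaling of a sample, and it was used to ask whether the genotypes drew on the pair of genes differently. It was 23.4, 21.9 and 29.2% in the XX samples, 19.1, 31.0 and 37.6% in the XO samples and 19.1, 25.3 and 33.6% in the XY samples. The spread within a genotype was wider than counting error, as XO1 (95% Wilson interval 16.2–22.5%) and XO3 (32.3–43.2%) show. Means were 24.8 ± 3.89, 29.2 ± 9.35 and 26.0 ± 7.31% (SD, n = 3), and exact permutation tests, two-sided, gave p = 0.6 for XX vs. XO, p = 0.8 for XX vs. XY and p = 0.7 for XY vs. XO (each adjusted p = 0.8 over 3 tests), where 3 samples against 3 cannot give less than 0.1. Paired by replicate number, the share was lower in XY than in XO samples in 3 of 3 pairs, by -0.071, -5.68 and -3.95 percentage points (exact paired permutation test, two-sided, p = 0.25, the smallest that 3 pairs can give), and with the copies of H3f3a added also in 3 of 3. With the copies added, the share rose to 35.1 ± 3.93, 36.2 ± 7.91 and 34.1 ± 7.56%, and the difference of XX from XY changed sign, from -1.20 to 1.02 percentage points.

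**Figure D2:**
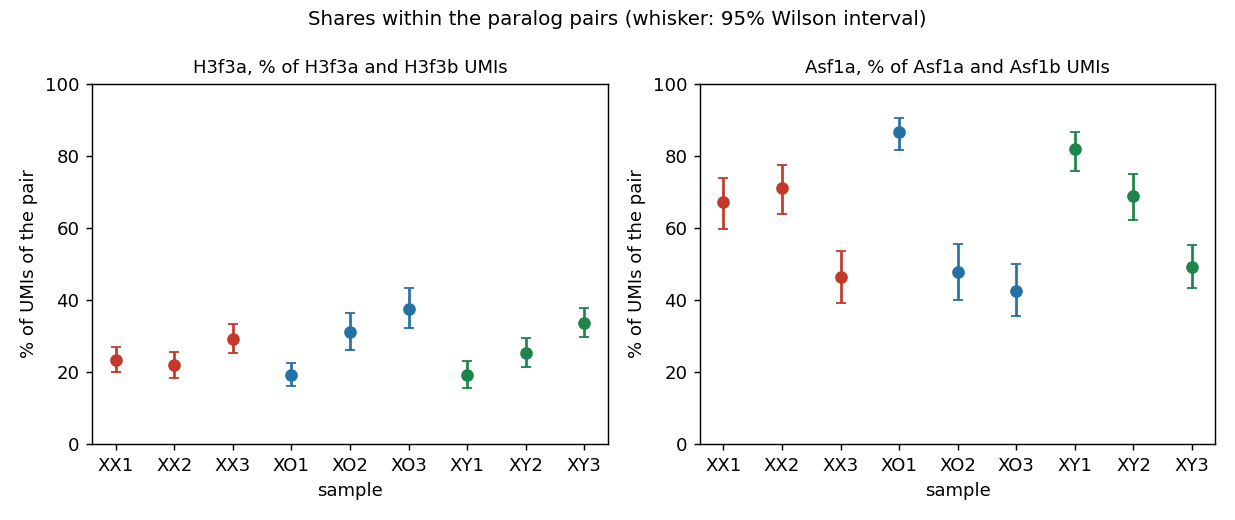
Percentage of the UMIs of a paralog pair (vertical axes, 0–100%) that came from H3f3a (left) and Asf1a (right) in each of the 9 samples; whiskers are 95% Wilson intervals, which cover counting error alone. H3f3a spans 19.1–37.6% and Asf1a 42.6–86.7%, with the extremes of the Asf1a share in 2 XO samples.

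ATRX is a SWI/SNF-type helicase that binds pericentromeric heterochromatin and recruits DAXX, and Atrx (chrX:105797615-105929403, minus strand) is the only X-linked gene among the 9. It reached 367, 310 and 256 normalized CPM in the XX samples, 381, 141 and 147 in the XO samples and 230.1, 137 and 132 in the XY samples. The XX samples all lay above the XY samples. In XO oocytes 2 samples were close to the lower XY samples, and XO1 was above every XX sample. In the fit used here Atrx was not called, with log2 fold changes of 0.90 (SE 0.447, 95% interval -0.10 to 1.90, adjusted p = 0.938) for XX vs. XY and 0.48 (-0.52 to 1.47, adjusted p = 0.562) for XX vs. XO by edgeR's quasi-likelihood test. Relative to the median of all tested genes the changes were 1.09 and 0.94, and 98.2 and 94.7% of the tested genes had a lower log2 fold change. The 368 tested X-linked genes had a median log2 fold change of 0.57 for XX vs. XY and 0.32 for XX vs. XO oocytes, and 80 and 138 of them were above Atrx. For XY vs. XO, Atrx gave -0.42 (-1.42 to 0.57) with the X-linked median at -0.20. The study, with limma and surrogate variables on the same libraries, did call Atrx at p below 0.05. It names the gene as an example of X-linked genes higher in XX than in XO and XY oocytes. By qRT-PCR it reports Atrx as lower in XY than in XX oocytes at nearly all sizes. It also reports lower levels in XO than in XX oocytes, though the difference was not significant at every size. At the end of growth it gives Atrx as lower in XY than in XO oocytes.

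One library set the comparison with XO oocytes. Without XO1 the log2 fold change of Atrx for XX vs. XO was 1.11 (adjusted p = 0.0314), and the change for XY vs. XO turned to 0.21. With XO1 and XY1 both left out, a choice made after seeing the data, it was 1.11 (adjusted p = 0.00496) for XX vs. XO and 1.21 (adjusted p = 0.0583) for XX vs. XY. With 2 surrogate variables in the edgeR model (the methods of the study also use surrogate variables, but with limma, and state no number), Atrx was called in both comparisons, at 0.75 (adjusted p = 0.0392) and 1.13 (adjusted p = 8.22e-05). The share of all tested genes called in these 2 comparisons moved too, from 18.1 and 5.80% as reported to 36.9 and 11.1% without XO1, 41.7 and 15.7% without XO1 and XY1, and 16.6 and 19.9% with surrogate variables. Genes passing after adjustment for XX vs. XO rose from 0 of 10993 to 2923 of 11590, 3706 of 11428 and 362 of 10993 in these fits. For XX vs. XY they rose from 9 to 703 of 10993 with surrogate variables. With library size alone, and so no spike-in, Atrx was called for XX vs. XY at the unadjusted threshold (1.05, adjusted p = 0.880, edgeR) and gave 1.01 for XX vs. XO. Atrx was higher in XX oocytes than in XO and XY oocytes in every one of these fits and with any 1 library left out.

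**Figure D3:**
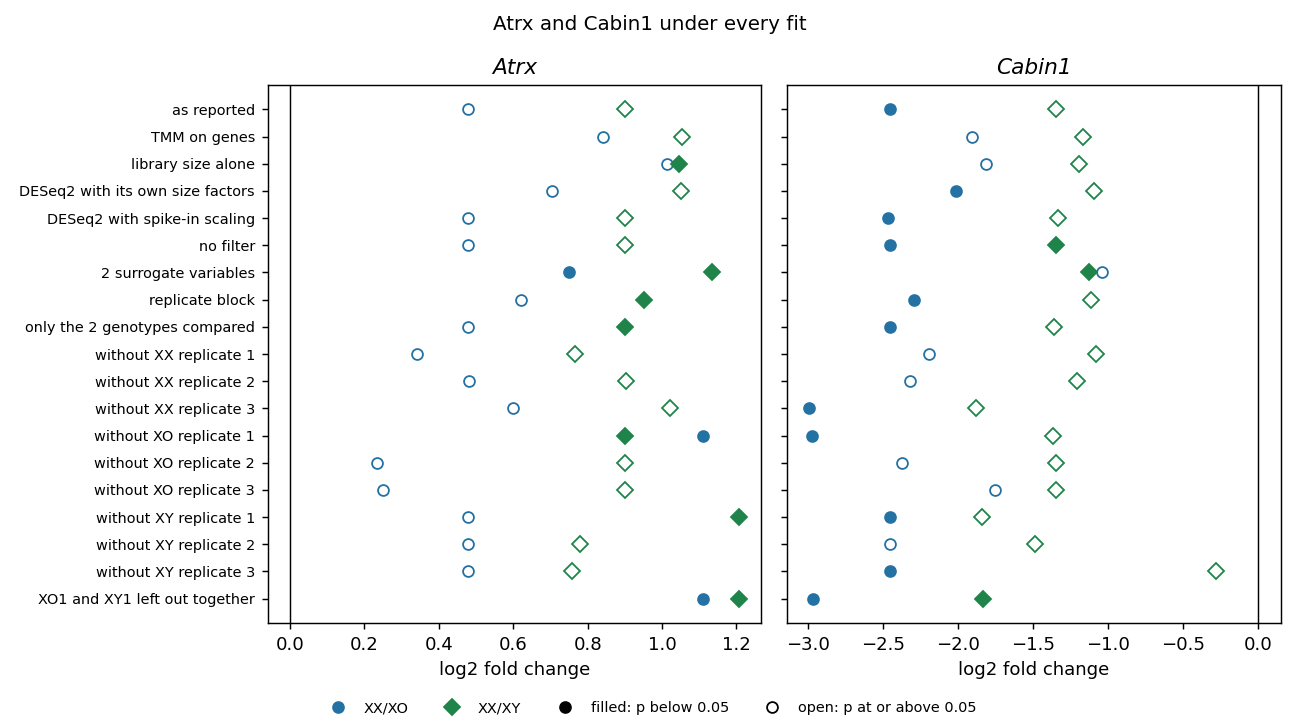
Log2 fold changes (horizontal axes) of Atrx (left) and Cabin1 (right) for XX/XO (circles) and XX/XY (diamonds) under each fit (rows); filled symbols have an unadjusted p below 0.05. Atrx lies above 0 in all rows, between 0.23 and 1.21, and Cabin1 below 0, between -2.99 and -0.28.

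DAXX is the H3.3-specific chaperone of the ATRX route. Daxx (chr17:33909414-33915589, plus strand) had 2, 5 and 6 UMIs in the XX samples, 3, 5 and 8 in the XO samples and 1, 8 and 7 in the XY samples, which correspond to 0.712–1.83, 1.55–4.52 and 0.465–2.60 normalized CPM. The genotypes overlapped. Daxx was the only member below edgeR's filter on low counts and so was not among the 10993 genes tested. When all genes with any UMI were kept, its log2 fold changes were -0.99, -0.32 and -0.67 for XX vs. XO, XX vs. XY and XY vs. XO (adjusted p = 0.662, 1 and 0.805, edgeR).

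HIRA forms a complex with UBN1 and CABIN1. Hira (chr16:18877037-18970309, plus strand) had 6–15 UMIs per sample, with 3.92, 4.90 and 2.74 normalized CPM in the XX, 4.66, 3.10 and 6.77 in the XO and 5.58, 2.93 and 4.53 in the XY samples. The 3 genotypes overlapped, and the intervals of the log2 fold change ran from -1.36 to 0.70 for XX vs. XO, from -1.17 to 0.84 for XX vs. XY and from -1.19 to 0.86 for XY vs. XO. All 3 point estimates were negative (-0.33, -0.16 and -0.17) and all 3 turned positive with TMM scaling.

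UBN1 binds H3.3 within the HIRA complex and gives it its choice of variant. Ubn1 (chr16:5050068-5086285, plus strand) had 12.8, 8.75 and 17.1 normalized CPM in the XX, 26.4, 17.6 and 14.7 in the XO and 15.8, 8.79 and 12.7 in the XY samples. XO1 was the highest sample and the genotypes overlapped. The log2 fold change was -0.60 (SE 0.379, adjusted p = 0.396) for XX vs. XO, -0.66 (SE 0.381, adjusted p = 0.549) for XY vs. XO and 0.06 for XX vs. XY oocytes. Without XO1 it was -0.32 for XX vs. XO and -0.39 for XY vs. XO.

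CABIN1, the third subunit, also binds calcineurin, from which it has its name. Cabin1 (chr10:75646112-75764341, minus strand) was the one member that passed the unadjusted threshold of 0.05 and so was called, being lower in XX than in XO oocytes with a log2 fold change of -2.45 (SE 1.00, adjusted p = 0.251, edgeR). It had 1.78, 2.45 and 4.87 normalized CPM in the XX samples, 2.07, 18.6 and 29.9 in the XO samples and 0.930, 6.19 and 15.7 in the XY samples, from 5, 7 and 16, then 4, 36 and 53, then 2, 19 and 52 UMIs. XO1 fell among the XX samples and XY1 below them, so the genotypes overlapped. Its range over the 9 samples was 32.2-fold, its coefficient of variation in the fit was 0.782, and 96.3% of the tested genes varied less. For XX vs. XY the log2 fold change was -1.35 (95% interval -3.58 to 0.89) and for XY vs. XO -1.11 (-3.19 to 0.97).

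The Cabin1 call did not hold with TMM scaling (-1.91, adjusted p = 0.466, edgeR), with library size alone (-1.81, adjusted p = 0.479), with 2 surrogate variables (-1.04, adjusted p = 0.451), or in edgeR fits without XX1 (-2.19), XX2 (-2.32), XO2 (-2.38), XO3 (-1.75) or XY2 (-2.46). It passed the adjusted threshold without XO1 (-2.97, adjusted p = 0.0150), with XO1 and XY1 left out (-2.97, adjusted p = 0.00151) and when all genes with any UMI were kept (-2.45, adjusted p = 0.00064, edgeR). In these fits 2923 of 11590, 3706 of 11428 and 1607 of 28051 genes passed that threshold, against 0 of 10993 as reported. XO and XY samples deviated together by replicate number, and with this number as a block Cabin1 was also called lower in XY than in XO oocytes, at -1.18 (adjusted p = 0.263, edgeR).

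Counted over the 8 members tested, 0 were called higher and 1 lower for XX vs. XO oocytes, where 1.4% of all tested genes were called higher and 16.7% lower. For XX vs. XY oocytes 0 of 8 were called, where 1.41% of the genes were higher and 4.39% lower, and for XY vs. XO 0 of 8, where 1.69% were higher and 8.24% lower. The median log2 fold change of the members was -0.50, -0.07 and -0.43 in these comparisons, beside -0.46, -0.19 and -0.30 for all genes. Relative to the median of all genes, the changes for XX vs. XO were 0.94 for Atrx, 0.13 for Hira, -0.14 for Ubn1 and -1.99 for Cabin1. They were -0.37 for Asf1a, -0.38 for Asf1b, 0.06 for H3f3a and 0.24 for H3f3b. After Benjamini-Hochberg adjustment in this fit none of the members passed, the smallest adjusted p being 0.251 (Cabin1, XX vs. XO). Of all 10993 tested genes, only 0, 9 and 4 passed in these comparisons. DESeq2, with its own size factors or with the spike-in scaling, called 1, 0 and 0 members in these comparisons at the same unadjusted threshold. The comparisons share samples, each genotype entering 2 of them.

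**Figure D4:**
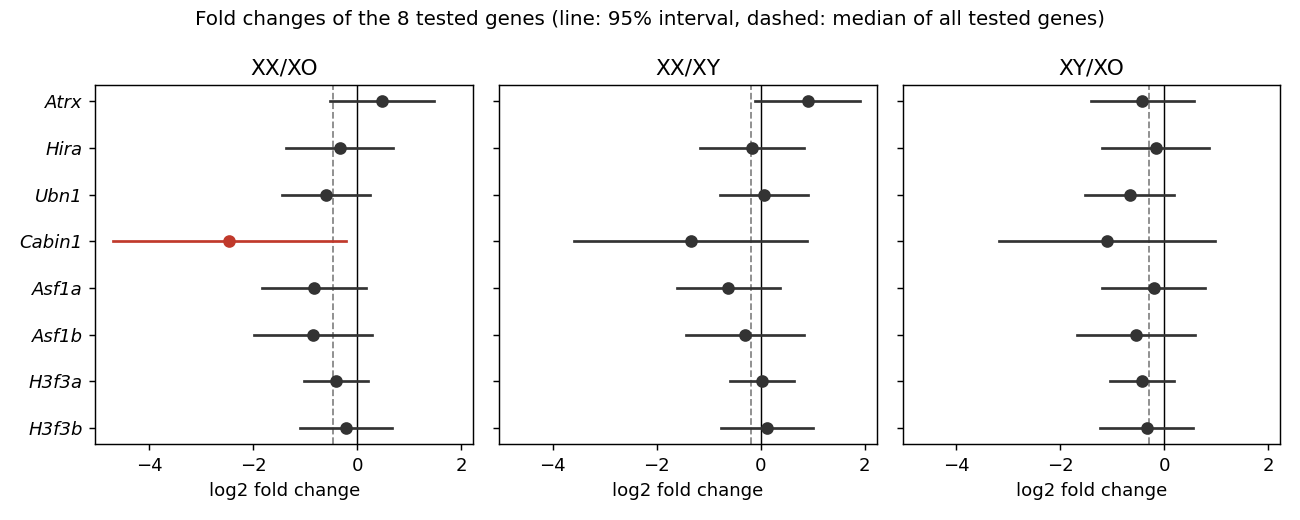
Log2 fold changes (horizontal axes) of the 8 tested genes for XX/XO, XX/XY and XY/XO, with 95% intervals as lines; the dashed line is the median of all 10993 tested genes and red marks an unadjusted p below 0.05. Cabin1 for XX/XO, at -2.45, is the one interval that does not reach 0.

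ASF1A and ASF1B are paralogs, with 146 of 202 aligned residues identical (72.3%), and textbook accounts tie ASF1A to HIRA and ASF1B to dividing cells. Asf1a (chr10:53596757-53609225, plus strand) had 39.5, 40.6 and 24.7 normalized CPM in the XX, 105, 38.8 and 42.3 in the XO and 75.3, 45.6 and 40.4 in the XY samples. XO1 and XY1 were its highest samples. Its log2 fold changes of -0.83 (SE 0.446, adjusted p = 0.336) for XX vs. XO and -0.62 (95% interval -1.62 to 0.38) for XX vs. XY were not called. Without XO1 the change for XX vs. XO was -0.22. Asf1b (chr8:83955507-83970197, plus strand) had 19.2, 16.5 and 28.6 in the XX, 16.1, 42.4 and 57.0 in the XO and 16.7, 20.5 and 41.7 in the XY samples. Here XO1 was the lowest of all 9 samples. Its log2 fold change was -0.84 (SE 0.507, adjusted p = 0.379) for XX vs. XO and, without XO1, it was called at -1.21 (adjusted p = 0.047, edgeR). In that fit 36.9% of all tested genes were called for XX vs. XO, and 2923 of 11590 passed after adjustment.

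Within a sample, Asf1a made up 67.3, 71.2 and 46.3% of the UMIs of the pair in the XX samples, 86.7, 47.8 and 42.6% in the XO samples and 81.8, 69.0 and 49.3% in the XY samples. Asf1b had more UMIs than Asf1a in XX3, XO2, XO3 and XY3, but the 95% Wilson intervals of the Asf1a share reached 50.0% or more in each of them (to 53.7, 55.5, 50.0 and 55.2%), so this order was within counting error. In the other 5 samples the interval lay above 50%, with 59.8% as its lowest bound. The means of 61.6 ± 13.4, 59.0 ± 24.1 and 66.7 ± 16.4% (SD, n = 3) differed by less than the spread between replicates, with p = 0.9, 0.6 and 0.7 for XX vs. XO, XX vs. XY and XY vs. XO by exact permutation tests (each adjusted p = 0.9).

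Samples of a genotype differed in a way that several members shared. Atrx and H3f3b were highest in replicate 1 of all 3 genotypes, as were 18.4% of the tested genes, and Cabin1 and Asf1b were highest in replicate 3 of all 3, as were 25.7%. Cabin1 was also lowest in each replicate 1 (7.3% of genes). After the mean of its genotype was taken from each value on the scale of log2(normalized CPM + 1), Atrx, H3f3b and Asf1a moved together over the 9 samples (Pearson r = 0.980 for Atrx and H3f3b, 0.973 for Atrx and Asf1a, 0.959 for Asf1a and H3f3b). Asf1b and Cabin1 moved with each other (r = 0.944) and Cabin1 against Atrx (r = -0.943). These are among the closest of the 28 pairs of members. Other pairs did not move together, among them H3f3a with H3f3b (r = 0.028), Atrx with H3f3a (-0.043) and Atrx with Hira (0.29). These samples share 1 scaling factor each across genes, and the coefficients are a description of 9 pools. What a replicate number stands for is not given in the labels.

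**Figure D5:**
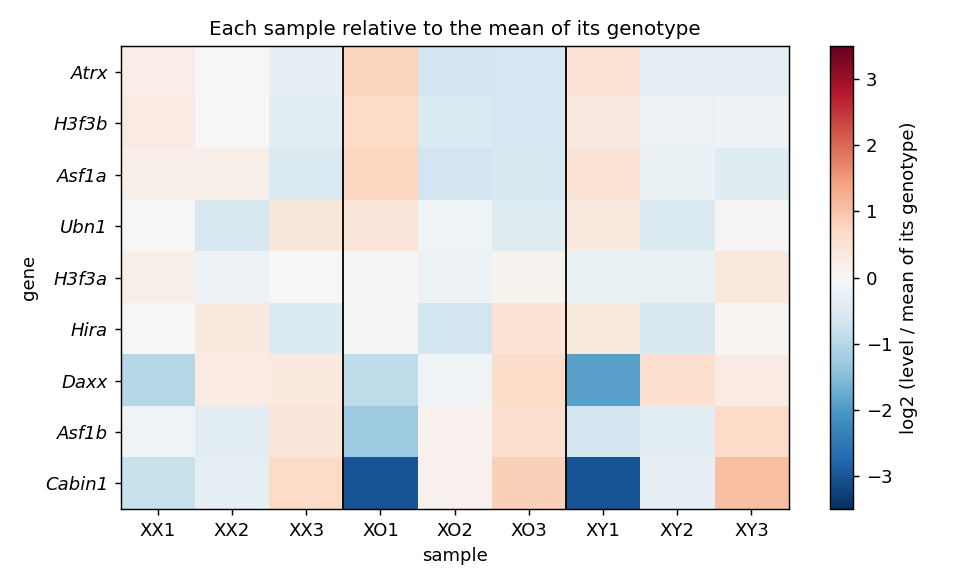
Log2 of the level of each gene (rows) in each sample (columns) over the mean of its genotype; red is above and blue below that mean. In XO1, Atrx stands at 0.77, H3f3b at 0.69 and Asf1a at 0.76, while Asf1b stands at -1.26 and Cabin1 at -3.03, and XY1 has the same signs.

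The deposited log2 values from which batch effects had been regressed gave Atrx as 0.74 higher in XX than in XO and 1.08 higher than in XY oocytes, with the samples of each genotype apart. Asf1a was lower in XX than in XO (-0.60) and XY oocytes (-0.44), also with samples apart. Cabin1 differed by -0.07 between XX and XO oocytes in these values, and Asf1b by 0.41, opposite in sign to its fold change from the counts. In this matrix 3 of 8 tested members had samples apart in each comparison, where 48.8% of the genes did so for XX vs. XO, 25.4% for XX vs. XY and 46.9% for XY vs. XO oocytes.

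Other genes of histone supply were read from lists of related factors. Of the replication-coupled and other H3–H4 chaperones, 5 of 8 were tested, and Nasp, which stores free H3–H4, was called lower for XX vs. XO oocytes (-0.76, adjusted p = 0.275, edgeR), while Rbbp7, an X-linked histone-binding subunit of several complexes, was called higher for XX vs. XY oocytes (0.98, adjusted p = 0.765, edgeR). For XY vs. XO oocytes 0 genes of this list were called. The 7 of 8 tested factors tied to H3.3 deposition or transcription (Ubn2, Dek, Chd1 and others) and the 5 of 5 tested genes of the centromeric variant CENP-A and its loading had 0 genes called in all 3 comparisons by edgeR. With 18.1, 5.80 and 9.93% of all tested genes called in either direction for XX vs. XO, XX vs. XY and XY vs. XO, lists of this size would hold few called genes at the background rate, and nothing is read from these counts. List medians for XX vs. XO of these 3 lists lay between -0.62 and -0.31, beside -0.46 for all genes. The call for Nasp was lost in 13 of 18 other fits, with log2 fold changes between -0.87 and -0.19, and that for Rbbp7 in 4, with changes of 0.86–0.94.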

How the data were processed

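RNA of 9 pools of oocytes was analysed, 3 per genotype as the labels group them, and no sample was left out. The XO column without a number was taken as replicate 1. Per the file headers and the methods of the study, the authors aligned stranded reads with HISAT2 (version not given in the sources used here) to GRCm38 and deposited UMI counts of 5′ exons per gene. A second matrix, a signal deposited by the authors as normalized CPM, is those counts scaled to the UMIs on genes times an ERCC spike-in factor. Log2 values with batch effects removed by the authors (sva and cleaningY) form another matrix.

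Counts were tested with edgeR 4.0.16 in R 4.3.3 (quasi-likelihood F test, filterByExpr, spike-in TMM factors, 1 mean per genotype, all 9 samples, two-sided), and the test was checked on simulated data. The simulated counts varied independently between samples, so the check does not cover deviations shared by replicate number. A gene was called at an unadjusted p below 0.05, as in the study, and adjusted p-values are Benjamini-Hochberg values over all 10993 genes tested. Counts below the filter were not tested. Shares within paralog pairs were compared by exact permutation tests. Wilson intervals have a level of 95% and cover counting error only. The members and lists were chosen with earlier results of these data known. All 9 members, every other gene whose name starts with H3f3, each called gene of 3 lists of related factors and the 3 genes closest to Atrx, Hira, H3f3a and H3f3b are named by rule. Another list is not reported here. Copies of H3.3 were searched with BLAST+ in Gencode vM21 after the counts were seen. Alternatives were DESeq2 1.42.0, other scalings, no filter, sva 3.50.0, a replicate block and the removal of libraries.

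Pairing by replicate number comes from the data alone. Correlations of deviations from genotype means over the tested genes were 0.830, 0.278 and 0.773 for XO with XY samples (replicates 1 to 3). They were 0.468, -0.447 and 0.679 for XX with XO and 0.435, -0.0595 and 0.726 for XX with XY samples. Paired tests of shares were made for XO and XY alone, where all values were positive. The replicate block of the edgeR fit covered all 9 samples. Whether pools came from separate animals is not stated beyond the words biological triplicate, and p-values measure the spread between these pools.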

Additional observations from a re-analysis of the deposited data

How the results depend on the processing

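Over the 24 fold changes of members and their other fits, 432 values in all, 358 kept their sign and their side of the threshold, 26 passed it in addition, 8 no longer passed it (all Cabin1, XX vs. XO) and 40 changed sign, none of them called in either fit. Each count of members called is followed by the share of all genes called in the same fit. For XX vs. XO oocytes, 1 as reported (18.1%), it was 0 with TMM (11.9%) and with library size alone (12.8%), 2 with 2 surrogate variables (16.6%), 3 with XO1 and XY1 left out (41.7%) and 0–3 with 1 library left out (8.67–36.9%). For XX vs. XY, 0 as reported (5.80%), it was 1 with library size alone (5.55%), without the filter (4.33%) and with only the 2 genotypes compared (10.1%), 3 with surrogate variables (19.9%), 2 with XO1 and XY1 left out (15.7%) and 0–1 with 1 library left out (3.3–11.1%). For XY vs. XO, 0 as reported (9.93%), it was 1 without the filter (9.75%), 2 with surrogate variables (23.1%), 1 with XO1 and XY1 left out (27.8%) and 0–2 with 1 library left out (3.74–32.1%). With the replicate block these counts were 2, 1 and 1 (23.0, 9.16 and 16.6%), for Cabin1 and Asf1a (-0.71), Atrx (0.95, adjusted p = 0.337 by edgeR) and Cabin1. The cause of these moves was not tested.

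Signs turned as follows. For XX vs. XO oocytes, TMM gave Hira 0.13, H3f3a 0.029 and H3f3b 0.15, library size alone gave 0.26, 0.17 and 0.32, DESeq2 size factors gave Hira 0.0090 and H3f3b 0.017, surrogate variables gave Hira 0.60, and H3f3b was 0.31 with XO1 and XY1 left out and between -0.44 and 0.31 with 1 library left out. For XX vs. XY, Hira was 0.0056 with TMM, 0.018 with DESeq2, 0.38 with surrogate variables and 0.032 with XO1 and XY1 left out, when H3f3a was -0.075. With 1 library left out, Hira lay between -0.39 and 0.039, Ubn1 between -0.20 and 0.27, Asf1b between -0.57 and 0.20, H3f3a between -0.082 and 0.26 and H3f3b between -0.046 and 0.31. For XY vs. XO, Hira was 0.13 with TMM, 0.28 with library size alone and 0.22 with surrogate variables, Asf1a 0.011 with TMM, 0.19 with library size and 0.085 with XO1 and XY1 left out, H3f3b 0.052 with library size and 0.0017 with XO1 and XY1 left out, and surrogate variables gave Cabin1 0.087 and Asf1b 0.016. With 1 library left out, Atrx lay between -0.73 and 0.21, Hira between -0.41 and 0.15, Asf1a between -0.53 and 0.40 and H3f3b between -0.56 and 0.19.

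The H3f3a share differed by -9.49 (without XO1) to -0.27 (without XO3) percentage points for XX minus XO, -4.43 as reported, by -4.68 to 2.61 for XX minus XY and by -8.28 to 0.938 for XY minus XO with 1 library left out, and by 1.02 for XX minus XY with copies added. The Asf1a share differed by -5.66 to 16.4 for XX minus XO, by -13.8 to 2.54 for XX minus XY and by -0.550 to 21.5 for XY minus XO with 1 library left out, and by 2.46 for XX minus XY with XO1 and XY1 left out. With the replicate block the paired tests of XY minus XO gave exact p = 0.25 (H3f3a share, -3.23) and p = 0.5 (Asf1a share, 7.66).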

Other observations

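Among the tested genes, those whose level followed Atrx most closely over the 9 samples, on the scale of log2(normalized CPM + 1), were the X-linked genes Usp9x (Pearson r = 0.988), Rbbp7 (0.985) and Ube2a (0.980). With TMM scaling the coefficients were 0.990–0.992. H3f3b was followed by Pfn2 (0.987), C330027C09Rik (0.987) and Sp1 (0.985), and Hira by Birc5 (0.949), Atp5g3 (0.922) and Stx3 (0.915). For H3f3a the closest were Rab8b (0.967), Zfp512 (0.956) and Dusp7 (0.952), and with TMM scaling these fell to 0.734, 0.697 and 0.818. All samples share the scaling of their library across genes, and the coefficients describe 9 pools from 3 genotypes.

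Of the 21 genes with an H3f3a-like copy, named after their values were seen, Gm2099 had the most UMIs (188 over the 9 samples), followed by H3f3c (123), Gm6421 (96) and Gm10257 (44). The copies made up 40.8, 40.7 and 37.2% of the UMIs of H3f3a with its copies in the XX samples, 38.6, 24.6 and 21.7% in the XO samples and 36.1, 33.1 and 30.3% in the XY samples.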
